A study of Mus musculus with 6 samples.

Results

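The genes described here are those of the keratin-associated proteins, taken as every gene whose symbol begins with Krtap followed by a digit. This rule found 58 of the 55421 genes in the deposited tables, without using any measured value. The samples were cerebral cortices of wild-type male C57BL/6J mice, 3 aged 6 months (mice 10, 11 and 17) and 3 aged 24 months (mice 2, 4 and 5), with 1 library per mouse. All mice had the same diet and light cycle, and were killed by cervical dislocation under isoflurane; there was no treatment and no genetic change. Each library started from 10 ng of RNA, was prepared with a kit for small inputs and was read as single ends of 75 bases. The counts on all genes summed to between 29495379 and 36494240 per library. The comparison asks how the RNA level of these genes differed between 6- and 24-month-old cortices.

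Keratin-associated proteins are small proteins of the hair shaft. They fill the matrix between the keratin filaments of the hair cortex and cuticle, and their many cysteines cross-link with the hair keratins through disulphide bonds, which gives hair its stiffness. Their genes lie in clusters, most have a single exon, and they are switched on late in the differentiation of hair follicle cells. Neural tissue has no hair follicles, and no role of these proteins in the brain is assumed here.

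All 58 genes were found in the GENCODE vM21 annotation of the mouse genome (GRCm38). Of these, 57 were annotated as protein coding and 1, Krtap19-9a, as a processed pseudogene, and 55 had a single exon block. Chromosome 16 held 25 of them, chromosome 11 held 23, chromosome 7 held 5, chromosome 10 held 3 and chromosome 1 held 2. The exonic length ranged from 166 to 1888 bases, with a median of 883.5, and came to 49.593 kb in all. The proteins were classed from the translated coding sequences. A protein of at least 15% cysteine was called high-cysteine, which held for 35 genes. Otherwise, one of at least 35% glycine plus tyrosine was called glycine-tyrosine-rich, which held for 12. Genes past both cuts, such as Krtap6-2 (15.5% cysteine, 65.2% glycine plus tyrosine), were thus counted as high-cysteine. The other 10 coding genes reached neither share.

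The sequences just before the transcription starts are shown first, since many of them share a motif. RefSeq (GRCm38.p6) gave a promoter for 51 of the 58 genes. The letters TATAAA, the core of the TATA box at which many tissue-specific genes position RNA polymerase, were searched on the gene's own strand between 50 and 11 bases before the start. They were found in 34 of the 51 promoters (66.7%), against 789 of 32851 promoters of all genes (2.40%) and 18 of 948 promoters of olfactory receptor genes (1.90%). On either strand of the whole 250 bases before the start, they were found in 41 Krtap promoters (80.4%), 12.4% of all promoters and 39.2% of olfactory receptor promoters. The Krtap promoters had a median GC content of 40.4% and a median of 2 CpG dinucleotides (range, 0 to 6). All promoters had medians of 52.4% and 6, and olfactory receptor promoters had 34.0% and 1, lower than the Krtap promoters. A match describes letters only, and whether a factor binds there was not tested. The 100 bases before the start are given for 6 of the genes with the highest counts in cortex, with the TATAAA found between 50 and 11 bases before the start in capitals.
Krtap4-7 (chr11:99644090-99644189, minus strand): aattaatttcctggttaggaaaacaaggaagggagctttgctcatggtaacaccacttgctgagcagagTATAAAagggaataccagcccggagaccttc
Krtap4-2 (chr11:99635085-99635184, minus strand): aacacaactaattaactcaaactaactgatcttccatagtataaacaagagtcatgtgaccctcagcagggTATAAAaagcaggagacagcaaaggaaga
Krtap4-1 (chr11:99628240-99628339, minus strand): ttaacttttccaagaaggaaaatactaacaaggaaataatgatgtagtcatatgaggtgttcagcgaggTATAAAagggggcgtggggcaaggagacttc
Krtap9-5 (chr11:99948324-99948423, plus strand): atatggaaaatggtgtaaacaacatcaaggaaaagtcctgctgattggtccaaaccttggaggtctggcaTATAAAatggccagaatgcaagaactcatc
Krtap3-2 (chr11:99556854-99556953, minus strand): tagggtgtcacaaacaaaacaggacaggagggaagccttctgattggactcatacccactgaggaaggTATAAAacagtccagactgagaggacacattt
Krtap24-1 (chr16:88612280-88612379, minus strand): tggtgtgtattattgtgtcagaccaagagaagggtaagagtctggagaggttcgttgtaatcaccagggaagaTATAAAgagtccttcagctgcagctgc
The same stretch follows for the 3 genes that had 0 counts in all 6 libraries.
Krtap3-1 (chr11:99566631-99566730, minus strand): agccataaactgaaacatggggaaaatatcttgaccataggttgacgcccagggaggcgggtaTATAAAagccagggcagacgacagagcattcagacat
Krtap1-4 (chr11:99583678-99583777, minus strand): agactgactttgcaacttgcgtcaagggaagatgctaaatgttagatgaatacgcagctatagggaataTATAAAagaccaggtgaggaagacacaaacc
Krtap4-13 (chr11:99809897-99809996, minus strand): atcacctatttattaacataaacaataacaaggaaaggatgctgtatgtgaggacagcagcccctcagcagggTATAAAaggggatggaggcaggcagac
The motif began 31 bases before the start in Krtap4-7, the gene with the most counts, and also in Krtap1-4, a gene with none. Its presence did not separate the genes with the most counts from those without any.

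Keratin-associated protein genes were almost unread at 6 months and had about 3 times as many counts at 24 months, still at a very low level. Over the 58 genes, 25, 29 and 19 counts were found in the 6-month-old mice 10, 11 and 17, and 110, 80 and 52 in the 24-month-old mice 2, 4 and 5. Scaled to CPM (counts per 1000000 counts) with TMM factors, which correct the library totals for composition, the summed level was 0.811, 0.840 and 0.580 CPM at 6 months and 3.39, 2.31 and 1.53 CPM at 24 months. All 24-month-old mice lay above all 6-month-old mice, and mouse 5 lay closest to the younger age. The 95% counting intervals of mouse 5 (1.14 to 2.00 CPM) and of the highest 6-month-old mouse, mouse 11 (0.562 to 1.21 CPM), overlapped. The mean was 0.744 ± 0.142 CPM at 6 months and 2.41 ± 0.935 CPM at 24 months (SD, n = 3 each), a ratio of 3.24. Pooled over the mice of each age, 73 counts stood against 242, a ratio of 3.22 per scaled library size, with an exact 95% interval of 2.47 to 4.24. Intervals here cover counting error alone, not the spread between mice. As the genes were proposed with results of these data known, no p-value is given for their sum. In bulk tissue, more cells expressing a gene and more RNA per cell cannot be told apart.

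**Figure D1:**
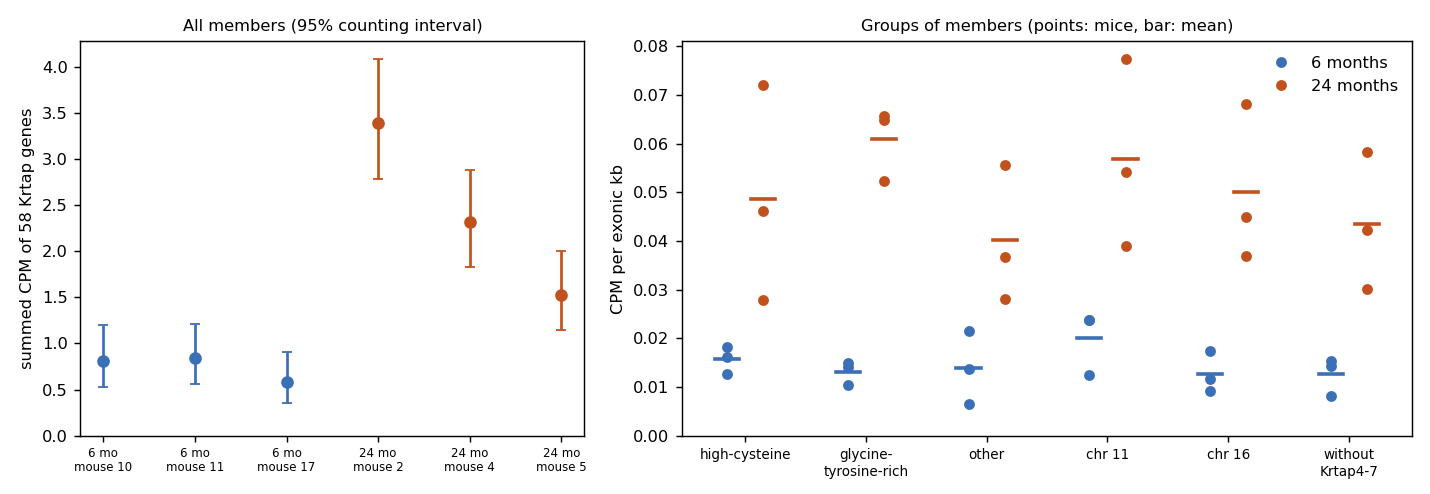
The left plot gives the summed CPM of the 58 genes in each library, with a 95% Poisson interval for counting error, and the right plot gives CPM per exonic kb for groups of members, with a point per mouse and a bar at the mean. The 6-month-old mice lie between 0.580 and 0.840 CPM and the 24-month-old mice between 1.53 and 3.39 CPM, and the ages do not overlap in any of the groups drawn.

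The difference was spread over many genes that had 1 or a few counts each. A count was found for 20, 19 and 12 of the 58 genes at 6 months, and for 46, 39 and 30 at 24 months. Of the 174 values at 6 months, 123 were 0, against 59 of 174 at 24 months. Genes with 3 or more counts numbered 0, 1 and 1 in the 6-month-old mice and 15, 11 and 6 in the 24-month-old mice. At 6 months, 49 of the 58 genes had no more than 1 count in any mouse. The highest count of any gene in any library was 18, and 2 genes reached 1 TPM in any library, Krtap4-7 (2.15 TPM) and Krtap19-1 (1.11 TPM), both in a 24-month-old mouse.

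Taken gene by gene, 3 genes had 0 counts throughout, 17 had counts at 24 months alone, 1 had counts at 6 months alone, and 37 had counts at both ages. At these counts a gene with 0 was below detection rather than shown to be silent, since 3 counts is the floor that a count of 0 allows. Of the 55 genes with a count, the mean CPM was higher at 24 months in 50 (90.9%), whereas 66.0% of all genes with a count had a higher mean at 24 months. The 5 genes with a lower mean were Krtap1-5, Krtap10-4, Krtap19-2, Krtap11-1 and Krtap5-1, named after their values were seen. All 24-month-old mice lay above all 6-month-old mice for 10 of the 55 genes (18.2%), close to the 16.8% found over all genes with a count, and no gene showed the opposite. These 10, also named after their values were seen, were Krtap2-4, Krtap3-2, Krtap4-1, Krtap4-6, Krtap8-1, Krtap14, Krtap19-3, Krtap24-1, Krtap26-1 and Krtap31-2.

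**Figure D2:**
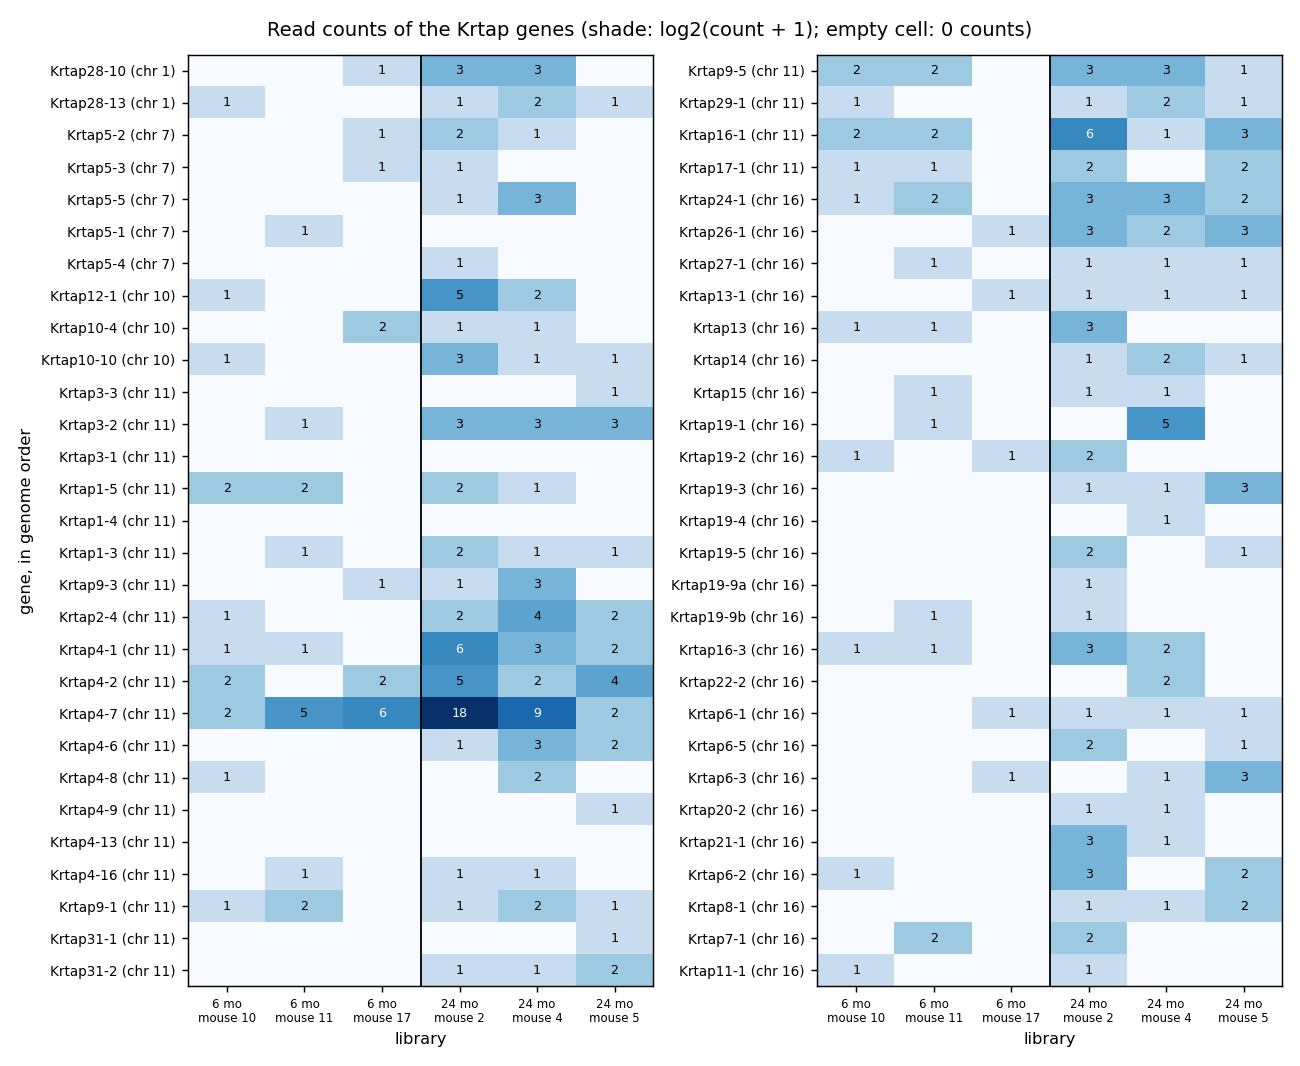
Each row is a gene, in genome order, each column is a library, and the number and the shade give the count, with empty cells at 0. Of the cells at 6 months 123 of 174 are empty, against 59 of 174 at 24 months, and Krtap4-7 stands out with up to 18 counts.

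Differential expression was tested with the quasi-likelihood test of edgeR across all 32905 genes that had 10 or more counts in the 6 libraries together, and p-values were adjusted over all of them by the Benjamini-Hochberg method. This left 7 Krtap genes, and 51 could not be tested. Because 1 of the 7 would have reached 10 counts from the 6-month-old mice alone and 4 from the 24-month-old mice alone, the filter itself favours genes that were higher at 24 months. At 1% FDR, 0 of the 7 were called, as were 0.0% of all genes tested. The study did report differentially expressed genes at 1% FDR, with edgeR after filtering by the genefilter package. As the main test here called no gene at 1% FDR, that result is not particular to the Krtap genes. At 10% FDR, 0 of the 7 were called, against 18.4% of all genes tested in either direction. At an unadjusted p under 0.05, 2 of the 7 were higher at 24 months, Krtap3-2 and Krtap4-1, against 17.6% of all genes. The likelihood ratio test of edgeR called these 2 genes at 10% FDR, with adjusted p-values of 0.0521 and 0.0840, and it called 16.1% of all genes as higher. The Wald test of DESeq2 called 0 at 1% or 10% FDR, and gave no adjusted p for 6 of the 7 because of their low counts. No Krtap gene was thus called by the main test.

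Krtap3-2 encodes a high-cysteine protein of 99 residues with 20.2% cysteine. It had 0, 1 and 0 counts at 6 months against 3, 3 and 3 at 24 months, so that the ages did not overlap. The pooled counts of 1 and 9 gave a ratio of 8.74 with a counting interval from 1.21 to 383. The fitted log2 fold change was 2.74 ± 0.99 (SE), with an adjusted p of 0.104 in the edgeR quasi-likelihood test. The width of the interval shows how little 1 count fixes the level at 6 months. Of the stretches of 69 bases (the read length after trimming) along Krtap3-2, 27.5% were also present in another annotated transcript, most often that of Krtap3-3.

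The Krtap4 genes, whose high-cysteine proteins belong to the ultra-high-sulphur group, are described together because they include the gene with the most counts. Their 8 genes summed to 6, 7 and 8 counts at 6 months against 31, 20 and 11 at 24 months, and the means were 0.0278 and 0.0803 CPM per exonic kb, against 0.0150 and 0.0486 for all 58 genes. Without Krtap4-7 the other 7 stood at 0.0123 and 0.0488, close to the family as a whole, so that the higher level of the group rests on that gene. Krtap4-7 (ENSMUSG00000045109.6, chromosome 11 from 99643106 to 99644089, minus strand) had 2, 5 and 6 counts at 6 months against 18, 9 and 2 at 24 months. It was high in the 24-month-old mice 2 and 4 and low in mouse 5, which equalled the lowest 6-month-old mouse. Its log2 fold change was 1.11 ± 0.72 (SE), with an adjusted p of 0.316 in the edgeR quasi-likelihood test. It held 17.8% of the family's counts at 6 months and 12.0% at 24 months, on 1.98% of its exonic length, and 1.97% of its 69-base stretches were shared with another transcript.

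Krtap4-1 had 1, 1 and 0 counts at 6 months against 6, 3 and 2 at 24 months, with no overlap of the ages. Pooled, 2 against 11 counts gave a ratio of 5.34 with a counting interval of 1.17 to 49.6, and the fitted log2 fold change was 2.23 ± 0.92 (SE; edgeR adjusted p = 0.138). Krtap4-2 had 2, 0 and 2 against 5, 2 and 4 counts, and the ages met at 2 counts. Its log2 fold change was 1.34 ± 0.85 (SE; edgeR adjusted p = 0.306). Without the 24-month-old mouse 5, 2 genes passed 10% FDR in the same test, Krtap4-7 (adjusted p = 0.0848) and Krtap4-1 (adjusted p = 0.0955), as did 14.0% of all genes as higher. Without the 24-month-old mouse 2, the log2 fold change of Krtap4-7 was 0.28 (adjusted p = 0.840). Krtap4-6 had 0 counts in all 6-month-old mice and 1, 3 and 2 at 24 months, and Krtap4-13 had 0 counts in all 6 mice. For Krtap4-13, 73.2% of the 69-base stretches were shared with another transcript, most often that of Gm11554. Whether reads from it were lost to other places was not tested.

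Of the other 3 tested genes, Krtap24-1, on chromosome 16, had 1, 2 and 0 against 3, 3 and 2 counts, with a pooled ratio of 2.59 and a counting interval of 0.621 to 15.1. In the CPM scale its ages did not overlap, and the log2 fold change was 1.27 ± 0.87 (SE; edgeR adjusted p = 0.342). It shares 150 exonic bases with Gm49688, a long non-coding RNA on the opposite strand with 0, 1 and 0 against 7, 2 and 1 counts, and the stated counting did not use strand. Krtap16-1, the longest gene of the family, had 2, 2 and 0 against 6, 1 and 3 counts and a log2 fold change of 1.21 ± 0.95 (SE; edgeR adjusted p = 0.402). Krtap9-5 had 2, 2 and 0 against 3, 3 and 1 counts and a log2 fold change of 0.71 ± 0.92 (SE; edgeR adjusted p = 0.619). The ages overlapped for the last 2 genes. All 7 fitted values were higher at 24 months, beside a median log2 fold change of 0.15 over all genes tested. That median depends on the filter. It was 0.498 with no filter beyond 1 count, and 0.032 under filterByExpr, edgeR's own filter. The filter that left these 7 genes itself favours genes that were higher at 24 months, so their shared direction is a description only.

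**Figure D3:**
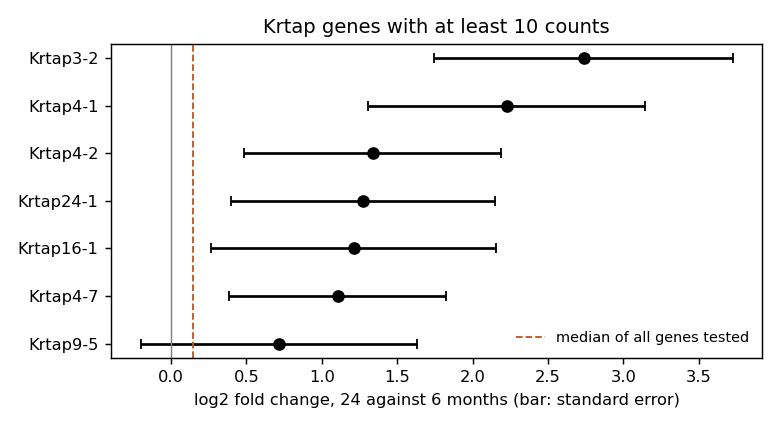
Points give the edgeR log2 fold change at 24 against 6 months for the 7 tested genes, bars the standard error, and the dashed line the median of all genes tested (0.15). Values run from 0.71 for Krtap9-5 to 2.74 for Krtap3-2, and none passed 10% FDR.

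Below the test's limit the counts were smaller still. Krtap2-4 had 1, 0 and 0 against 2, 4 and 2 counts, and Krtap26-1 had 0, 0 and 1 against 3, 2 and 3. Each was above the younger mice in every older mouse. Krtap12-1 had 1, 0 and 0 against 5, 2 and 0 counts, Krtap16-3 had 1, 1 and 0 against 3, 2 and 0, and Krtap28-10 had 0, 0 and 1 against 3, 3 and 0. In these genes mouse 5 had no count. Krtap6-2 had 1, 0 and 0 against 3, 0 and 2 counts, and Krtap1-3 had 0, 1 and 0 against 2, 1 and 1. Krtap17-1 had 1, 1 and 0 against 2, 0 and 2, and Krtap10-10 had 1, 0 and 0 against 3, 1 and 1. The ages overlapped in these 4. Krtap1-5, with 2, 2 and 0 against 2, 1 and 0, and Krtap9-1, with 1, 2 and 0 against 1, 2 and 1, had nearly the same counts at both ages. Krtap19-1 drew its counts at 24 months from mouse 4 alone, with 0, 1 and 0 against 0, 5 and 0.

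The difference between the ages was seen in the main clusters and in each class of protein. The 23 genes on chromosome 11 summed to 16, 18 and 9 counts at 6 months against 55, 41 and 29 at 24 months, a CPM ratio of 2.84. The 25 genes on chromosome 16, which lie apart from any keratin gene cluster, summed to 6, 10 and 5 against 37, 26 and 21, a ratio of 3.94. Neither set overlapped between the ages. The 5 genes on chromosome 7, all of the Krtap5 group, summed to 0, 1 and 2 against 5, 4 and 0 counts, the 3 on chromosome 10 to 2, 0 and 2 against 9, 4 and 1, and the 2 on chromosome 1 to 1, 0 and 1 against 4, 5 and 1. In these 3 small clusters the ages overlapped, and mouse 5 had no more counts than a 6-month-old mouse.

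By protein class, the high-cysteine genes summed to 19, 19 and 14 counts at 6 months against 79, 54 and 32 at 24 months, a CPM ratio of 3.10. The glycine-tyrosine-rich genes summed to 2, 3 and 3 against 13, 14 and 11, a ratio of 4.64, and the other coding genes to 4, 7 and 2 against 17, 12 and 9, a ratio of 2.88. No class overlapped between the ages, and the differences between the ratios were not tested. The 7 Krtap19 genes, glycine-tyrosine-rich except for the pseudogene Krtap19-9a, summed to 1, 2 and 1 against 7, 7 and 4 counts.

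The 20 genes with no 69-base stretch in another annotated transcript summed to 8, 11 and 2 counts at 6 months against 32, 21 and 19 at 24 months, a CPM ratio of 3.37. The 38 genes with such a stretch summed to 17, 18 and 17 against 78, 59 and 33, a ratio of 3.19. The difference between these ratios was not tested, and the former rests on 21 counts at 6 months. Krtap12-1, Krtap10-4 and Krtap10-10 lie inside Tspear, a gene with 4, 5 and 1 against 8, 4 and 5 counts, and Krtap10-10 shares 567 exonic bases with Gm2696. Without the genes that overlap another gene, the ratio of the family was 3.22.

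Counts followed length only loosely. Across the 58 genes, which are not independent of each other, the total count had a Spearman correlation of 0.34 with exonic length (Pearson, 0.29). The count per kb had a Spearman correlation of -0.36 with the GC content of the transcript and -0.20 with the share of common stretches. These are descriptions over genes of the same 6 libraries, at counts mostly under 10. Without Krtap4-7, which lies far above the others, the summed counts were 23, 24 and 13 at 6 months and 92, 71 and 50 at 24 months, a CPM ratio of 3.46.

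**Figure D4:**
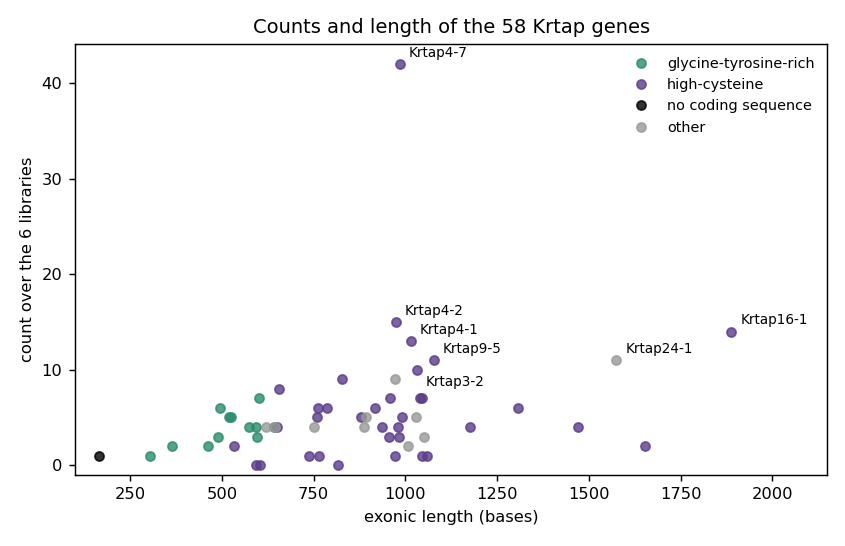
Each point is a Krtap gene, placed by its exonic length in bases and its count over the 6 libraries, and coloured by protein class, with the 7 tested genes named. Krtap4-7 had 42 counts on 984 bases, whereas the 3 genes at 0 counts are all high-cysteine genes between 593 and 815 bases.

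Gene families known from other tissues also had low counts, and their ratios between the ages ranged from 2.92 to 2.98, beside 3.24 for the Krtap genes. These differences between families were not tested. The Krtap genes stood at 0.0163, 0.0169 and 0.0117 CPM per exonic kb in the younger mice, and at 0.0684, 0.0466 and 0.0308 in the older mice. The olfactory receptor genes (Olfr, 1413 genes), which serve smell in the nose, had means of 0.0248 and 0.0739 CPM per kb, a ratio of 2.98. The vomeronasal receptor genes (Vmn1r and Vmn2r, 359 genes), which detect pheromones, had 0.0209 and 0.0618, a ratio of 2.96. The beta-defensin genes (Defb, 43 genes), which encode antimicrobial peptides of epithelia, had 0.0307 and 0.0894, a ratio of 2.92, and summed counts of 20, 20 and 21 against 57, 78 and 49. The ages did not overlap in any of these families.

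In a given library the Krtap genes stood at 69.4%, 67.4% and 45.6% of the olfactory receptor density at 6 months, and at 75.7%, 61.8% and 55.1% at 24 months. Of the beta-defensin density they stood at 51.2%, 59.4% and 37.1% at 6 months, and at 79.0%, 42.0% and 43.5% at 24 months. Both shares overlapped between the ages. The shares of the olfactory receptor density had means of 60.8 ± 13.2% and 64.2 ± 10.5% (SD, n = 3 each). Mice 2, 4 and 5 fell in the same order in the Krtap, olfactory and vomeronasal receptor genes, whereas mouse 4 was highest in the beta-defensin genes. Of the genes with a count, the mean was higher at 24 months in 97.1% of the olfactory receptor genes, 97.0% of the vomeronasal receptor genes and 90.0% of the beta-defensin genes, beside 90.9% of the Krtap genes. The part that any cause common to these families has in the Krtap counts was not tested.

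**Figure D5:**
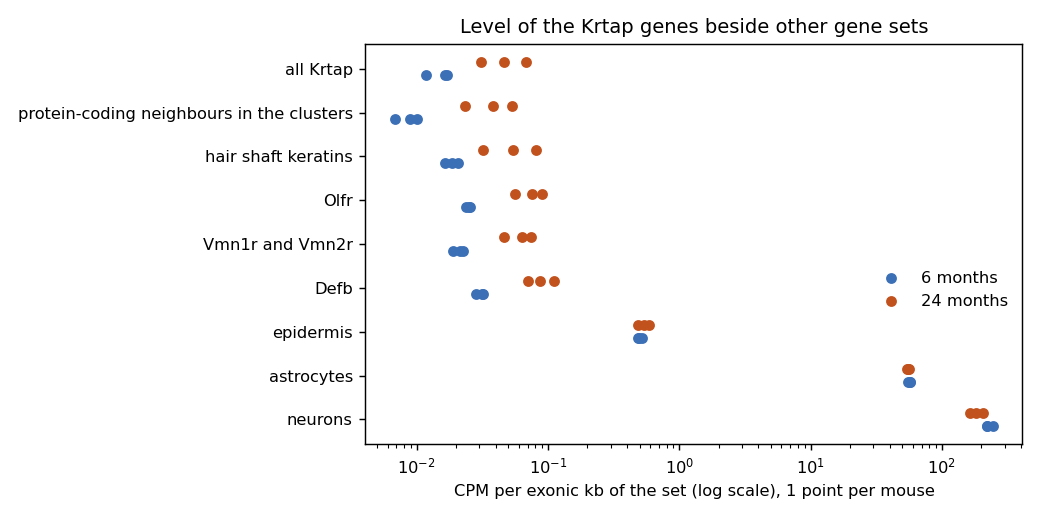
Each point is a mouse, placed on a log axis by the CPM per exonic kb of a gene set, in blue at 6 and in orange at 24 months. The Krtap genes lie at 0.0117 to 0.0169 and at 0.0308 to 0.0684, beside the hair shaft keratins, receptor and beta-defensin genes, whereas the astrocyte and neuron markers lie at means of about 55.0 and over.

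The hair shaft keratins, the partners of the keratin-associated proteins in hair, were at the same low level. The 16 genes of this list summed to 15, 19 and 20 counts at 6 months against 77, 55 and 32 at 24 months, or 0.0186 and 0.0554 CPM per kb, a ratio of 2.98. Of the 12 tested, 1 rose at 10% FDR and 0 fell, where 10.0% of all genes tested rose and 8.33% fell. Their median log2 fold change was 1.58. The filter of 10 counts favours genes that were higher at 24 months here too, as for the Krtap genes. The gene that rose was Krt83, with 0, 1 and 0 against 6, 8 and 1 counts (log2 fold change 3.45 ± 1.13, SE; edgeR adjusted p = 0.0851). Krt33a, with 0, 1 and 2 against 7, 3 and 5 counts, had an adjusted p of 0.116 in edgeR, and Krt82, with 3, 1 and 1 against 10, 9 and 1, an adjusted p of 0.169. Krt86 had 2, 3 and 1 against 3, 3 and 1 counts, and Krt87 had 1, 4 and 5 against 4, 5 and 2, with log2 fold changes of 0.17 and 0.10.

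The 10 transcription factors listed as regulators of hair differentiation summed to 92.8 ± 10.5 CPM at 6 months and 90.2 ± 16.7 CPM at 24 months (SD, n = 3 each). The ratio was 0.972 and the ages overlapped, with Cux1 alone at means of 75.3 and 68.1 CPM. Of the 10 genes, 3 rose at 10% FDR and 0 fell, beside the 10.0% of all genes that rose. Their median log2 fold change was 0.55 beside 0.15 over all genes. Dlx3 and Ovol1 reached the filter of 10 counts only through the 24-month-old mice. Dlx3, a homeobox factor of hair and placenta, had 1, 0 and 1 against 12, 6 and 4 counts (log2 fold change 3.20; edgeR adjusted p = 0.0615). Ovol1, a zinc finger factor of epidermal differentiation, had 0, 1 and 1 against 11, 3 and 3 (2.84; edgeR adjusted p = 0.0916). Gata3, a factor of the inner root sheath and of T cells, had 2, 6 and 2 against 15, 16 and 11 (1.99; edgeR adjusted p = 0.0556). Hoxc13, which binds promoters of hair keratin genes, had 1, 1 and 4 against 8, 9 and 3 counts and an adjusted p of 0.151 in edgeR, and Foxn1 had 1, 5 and 5 against 6, 9 and 2, with an adjusted p of 0.589. Lef1 (238, 299 and 338 against 251, 331 and 369 counts) and Cux1 (2109, 2803 and 2498 against 1896, 2022 and 2978) were well above the level of the Krtap genes, and their log2 fold changes were 0.08 and -0.14.

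The 15 genes of the inner root sheath and of hair differentiation had mean summed levels of 41.9 CPM at 6 months and 37.4 CPM at 24 months. The ratio was 0.892 and the ages overlapped. Most of both sums came from Tchh, Hr and Lpar6. The keratins of the list except Krt73 had means between 0.0193 CPM (Krt74 at 6 months) and 0.267 CPM (Krt26 at 24 months), so the ratio says little about them. All 15 genes of the list were tested, and their median log2 fold change was 0.49. At 10% FDR 1 rose and 0 fell, a smaller share than the 10.0% of all genes that rose. This was Padi3, an enzyme that converts arginine to citrulline in trichohyalin, with 0, 1 and 0 against 13, 5 and 5 counts (log2 fold change 4.06; edgeR adjusted p = 0.0553). Padi3 reached the filter of 10 counts only through the 24-month-old mice, as did Krt71, so the filter favours a rise here too. Trichohyalin (Tchh) itself, which was read at 499, 573 and 382 against 242, 403 and 481 counts, had a log2 fold change of -0.42 (edgeR adjusted p = 0.230). Krt71 had 1, 4 and 0 against 7, 6 and 10 counts (edgeR adjusted p = 0.101), and Krt25 had 3, 7 and 5 against 7, 7 and 8 (edgeR adjusted p = 0.468).

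Markers of the epidermis, the tissue that hair grows from, were read as well. Over the 11 epidermal genes the summed level was 25.1 ± 0.977 CPM at 6 months and 27.1 ± 2.77 CPM at 24 months (SD, n = 3 each), and the ages overlapped. Most of this came from Krt10, Lor and Krt1. The defining keratins of the basal layer were near 0, with 0, 1 and 2 against 5, 5 and 1 counts for Krt5 and 1, 1 and 2 against 3, 2 and 1 for Krt14. Of the 10 epidermal genes tested, 1 rose at 10% FDR and 0 fell, the same share as the 10.0% of all genes that rose. This was Flg, with 4, 3 and 7 against 19, 16 and 8 counts (edgeR adjusted p = 0.0819). Their part in the Krtap counts was not tested.

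The tissue itself carried the markers of cortex. The neuronal list summed to 10763 ± 646 CPM at 6 months and 8675.7 ± 1013 CPM at 24 months (SD, n = 3 each), with no overlap, and 2 of its 7 genes, Syt1 and Camk2a, fell at 10% FDR, where 8.33% of all genes fell. Of the 25 genes in the other lists, 2 rose at 10% FDR, Gfap of astrocytes and Tmem119 of microglia, where 10.0% of all genes tested rose. Another 2 fell, Csf1r of microglia and Hbb-bt of red blood cells, beside the 8.33% of all genes that fell. The astrocyte, oligodendrocyte, microglia, meninges, choroid plexus, red blood cell and endothelium lists all overlapped between the ages in their summed CPM, with ratios from 0.783 to 1.21.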

How the data were processed

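The authors trimmed the reads with Trim Galore 0.6.4, mapped them to GRCm38 with STAR 2.7.3a and counted those on exons per gene with featureCounts (Subread 2.0.0), keeping reads of mapping quality 15 or more, with no stated strand setting. They deposited a count per gene and mouse, all whole numbers although the stated options split reads with several positions into fractions, and TPM values computed from the counts and exonic length. The Krtap genes, the gene lists and the tests were chosen with earlier results of these data known.

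CPM used TMM factors of edgeR 4.0.16 (R 4.3.3) on totals over all genes. The quasi-likelihood test of edgeR was run without covariates on each gene that had 10 or more counts in total, and FDR (Benjamini-Hochberg, over all of these) was read at 1%, as in the study, and at 10%. Alternatives were edgeR's likelihood ratio test, DESeq2 1.42.0, its size factors, library totals, other filters and each mouse left out. The genes named by rule are the 20 Krtap genes of largest total count, any past 10% FDR and the 3 longest with 0 counts. Of those tied at 5 counts, Krtap1-3 was taken by order of symbol. Outside the rule, the 5 genes with a lower mean at 24 months and the 10 with all older mice above all younger mice are named. These were picked after their values were seen. From the hair and skin lists, a part of the genes with at least 10 counts is named, not all of them. Lengths and positions are from GENCODE vM21, in which 55240 of 55421 identifiers were found, whereas the study names vM23. Its exonic lengths matched those implied by the TPM values within 1 base for 17716 of 17987 genes compared. Promoter sequences are those of RefSeq. The fit was tested on simulated data. Sums and intervals were computed in Python 3.11.15 (pandas 2.3.3, scipy 1.17.1).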

Additional observations from a re-analysis of the deposited data

How the results depend on the processing

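No paired analysis was possible because the mice of the 2 ages share no replicate number. The count of Krtap genes at 10% FDR was 0 with the quasi-likelihood test and 2 with the likelihood ratio test, and ranged from 0 to 2 when each mouse was left out, the 2 being reached without the 24-month-old mouse 5 (Krtap4-1 and Krtap4-7). The cause was not tested. Under library totals, DESeq2 size factors, a minimum of 1 count and the Wald test of DESeq2 it was 0, and at 1% FDR it was 0 under each alternative that tested any Krtap gene. Under filterByExpr, edgeR's own filter, no Krtap gene was tested. The summed CPM ratio of 3.24 stayed above 1 in all 12 alternatives, between 2.58 without the 24-month-old mouse 2 and 3.85 with the deposited TPM values. With library totals, which moved the median log2 fold change of all genes tested from 0.15 to 0.33, it was 3.73, and it was 3.76 with counts of other protein-coding genes as the denominator. The mean number of Krtap genes with a count was 17.0 at 6 months and 38.3 at 24 months. At 3 or more counts it was 0.667 and 10.7, and after thinning to the smallest total it was 15.1 and 37.2. The leave-out of genes with sequence in common was done with annotated transcripts, chosen after seeing the data, and gave 0.0146 and 0.0491 CPM per kb; leaving out genes that overlap another gene was also added then. Depth limits each gene: 51 of the 58 had no more than 3 counts in any library.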

Other observations

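The Krtap clusters hold 51 further protein-coding genes, which have systematic names and no Krtap symbol. They were chosen after the counts of the Krtap genes were seen and are given as a description. Whether they encode keratin-associated proteins was not tested. Their sums were 8, 13 and 11 counts in the younger mice and 65, 50 and 30 in the older, or 0.00859 and 0.0383 CPM per exonic kb, a ratio of 4.46 beside 3.24 for the Krtap genes. The ages did not overlap, and the difference between the ratios was not tested. A count was found for 43 of the 51. Gm11563 had 0, 1 and 0 against 6, 4 and 2 counts, and Gm11559 had 1, 0 and 2 against 8, 2 and 0. Both lie in the cluster on chromosome 11, and the latter had no count in mouse 5, as Krtap12-1, Krtap16-3 and Krtap28-10 did.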
